A study of Mus musculus with 4 samples.

Results

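The comparison described here is that of fibroblasts cocultured with mesenchymal stem cells (MSCs) in the presence of QNZ with fibroblasts cultured alone in the presence of QNZ. It holds 2 of the 4 libraries of the series and was chosen by the sample labels, not by any measured value. In the coculture, mouse embryonic fibroblasts on the upper side of a permeable insert shared medium with bone-marrow MSCs for 48 h in the presence of QNZ. In the other culture the fibroblasts were kept with QNZ and without MSCs for 48 h. The fibroblasts were early-passage primary cells of C57BL/6 embryos at day 13.5, the MSCs came from bone marrow of C57BL/6 mice, every library is labelled WT, and both cultures of the pair carried the inhibitor. The dose of QNZ and the number of animals behind each culture are not given in the sources used here. The other 2 libraries are the same cultures without QNZ and are used only where they are named. Both libraries of the pair had QNZ, and coculture and alone refer to these libraries except where the pair without QNZ is named.

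QNZ is a small molecule used as an inhibitor of NF-κB. NF-κB is a family of transcription factors (Rela, Relb, Rel, Nfkb1 and Nfkb2) that is held in the cytoplasm by IκB proteins such as Nfkbia and enters the nucleus after cytokines such as TNF or IL-1 activate the IκB kinase. In fibroblasts its targets include chemokines, acute-phase proteins, the enzymes that make prostaglandins and nitric oxide, and its own inhibitors. Fibroblasts are the main makers of collagen and other matrix of soft tissue, and in wounds they can take on a contractile form with smooth muscle actin. A pair of libraries that both carry the inhibitor asks which differences between cocultured and lone fibroblasts are present while it is in the medium.

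Reads assigned to genes totalled 13153696 in coculture and 15778488 alone. The table holds 21839 genes, of which 11078 had at least 1 FPKM (reads per kilobase of gene length and per 1000000 reads) in either library, and these are called measured. Genes at or above 1 FPKM numbered 10846 in coculture and 10056 alone. Mitochondrially encoded genes took 1.49% of the reads in coculture and 0.580% alone, and genes of cytosolic ribosomal proteins took 3.12% and 9.88%. Each condition had 1 library, so no p-value, standard deviation or standard error can be given, the spread between cultures is unknown, and coculture cannot be told apart from any other difference between these libraries. Intervals of read ratios are exact 95% intervals and cover counting error only. In a bulk sample, fewer cells of a type and less RNA per cell cannot be told apart.

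In coculture with QNZ many genes of secreted signals and matrix were higher than alone with QNZ, and most genes of DNA replication, mitosis, ribosomal proteins and the respiratory chain were lower. Differences are given as log2(FPKM + 1) in coculture minus log2(FPKM + 1) alone, and a gene was counted where this log2 difference was at least 1 in size, which is a change of about 2-fold in abundant genes. By this rule 1584 of 11078 measured genes were higher in coculture (14.3%) and 986 were lower (8.90%), with a median log2 difference of 0.18. At a size of 2, 141 were higher and 60 lower. Longer genes were higher relative to shorter ones, and values given with the length trend removed are differences after subtraction of a smooth curve over log2 gene length. Scaling moved this split. Under median-of-ratios scaling the counts were 1004 higher and 1559 lower and the median -0.08. As TPM they were 4102 and 600, with a median of 0.61. Because a gene could enter through either library, genes near 0 in one of them entered only where the other was high, and the list counts are descriptions to be read beside these shares. A gene may stand in more than 1 list.

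**Figure D1:**
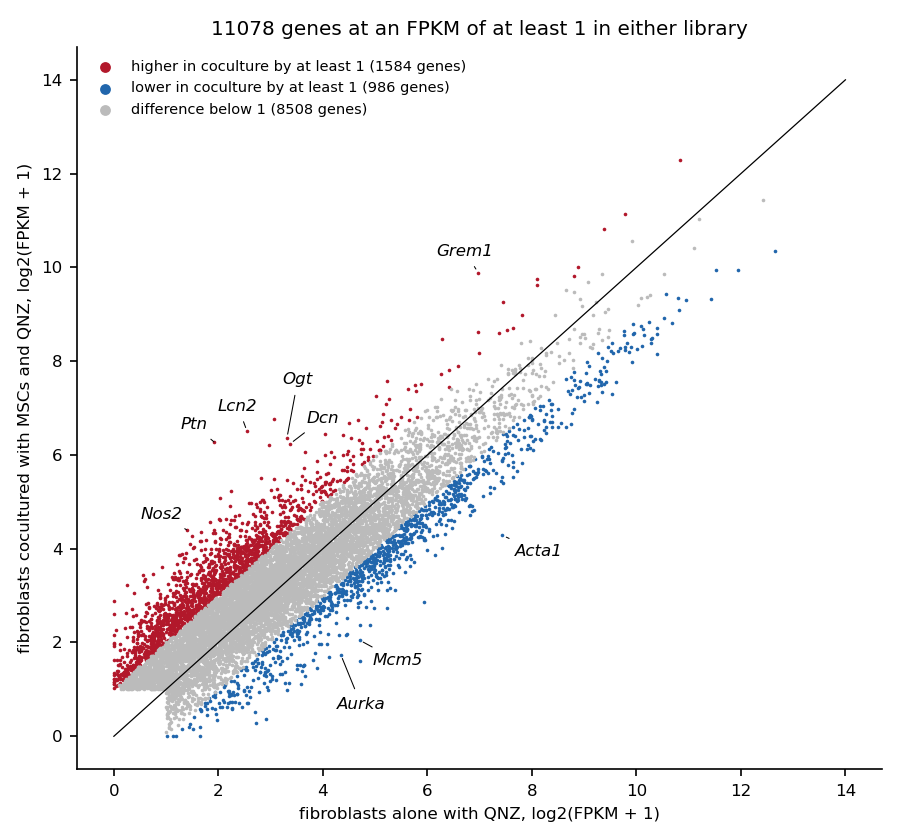
Level of each of 11078 measured genes, as log2(FPKM + 1), in coculture with QNZ (vertical axis) and alone with QNZ (horizontal axis), 1 library each, with the line of equal values. Red points are the 1584 genes higher in coculture by at least 1 and blue points the 986 genes lower by at least 1; Ptn, Lcn2 and Grem1 stand far above the line and Acta1 and Mcm5 far below it.

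The 15 genes furthest above fibroblasts alone were led by secreted proteins. Ptn, the heparin-binding growth factor pleiotrophin (ENSMUSG00000029838, chr6:36714929-36810220, minus strand), had 76.7 FPKM in coculture with QNZ and 2.77 FPKM alone with QNZ, from 3462 reads in coculture and 150 alone. Its log2 difference was 4.36 and its read ratio 27.7 (95% interval 23.5 to 32.8). Lcn2, lipocalin 2, an iron-siderophore carrier of the innate response (chr2:32384633-32388252), had 89.5 FPKM in coculture and 4.86 FPKM alone, a log2 difference of 3.95. Each of these genes was at a level of 2.77 to 4.86 FPKM in fibroblasts alone and above 70 FPKM in coculture. Dpt, the matrix protein dermatopontin, had 73.4 FPKM in coculture and 6.84 FPKM alone, a log2 difference of 3.25. C3, the central complement component, had 32.9 FPKM in coculture and 3.08 FPKM alone, a log2 difference of 3.05. Nos2, the inducible nitric oxide synthase, had 20.2 FPKM in coculture and 1.62 FPKM alone, with a read ratio of 12.4 (95% interval 10.2 to 15.2). These are products that leave the cell or act on its surroundings. Grem1, a secreted antagonist of BMPs, was the most abundant of the 15, with 947 FPKM in coculture and 124 FPKM alone, and its log2 difference was 2.92. Dcn, the collagen-binding proteoglycan decorin, had 74.3 FPKM in coculture and 9.34 FPKM alone, a log2 difference of 2.87. Agt, the precursor of angiotensin, had 9.21 FPKM in coculture and 0.503 FPKM alone, from 229 reads in coculture and 15 alone, a log2 difference of 2.76.

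The other 7 of these 15 genes encode mostly nuclear proteins. Rsrp1, an arginine- and serine-rich protein, had 108 FPKM in coculture and 7.38 FPKM alone, a log2 difference of 3.70. Ogt, the enzyme that adds N-acetylglucosamine to nuclear and cytoplasmic proteins, had 80.9 FPKM in coculture and 8.93 FPKM alone, a log2 difference of 3.05. The RNA-processing genes Prpf39 and Zfc3h1 had log2 differences of 2.73 and 2.72, and Leng8, Paxbp1 and Spaca6 had 2.98, 2.78 and 2.87. Among the 15, exons of Leng8, Paxbp1 and Prpf39 overlap a gene on the other strand (GENCODE M21). Whether counting used strand is not stated, so their reads may include those of the partner.

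The 15 genes furthest below fibroblasts alone were led by a muscle actin and genes of dividing cells. Acta1, the skeletal muscle alpha-actin (ENSMUSG00000031972, chr8:123891769-123894751, minus strand), had 18.5 FPKM in coculture with QNZ and 172 FPKM alone with QNZ, a log2 difference of -3.15 and a read ratio of 0.107 (95% interval 0.0961 to 0.119). Dctpp1, a pyrophosphatase that clears damaged dCTP, had 6.298 FPKM in coculture and 60.6 FPKM alone, a log2 difference of -3.08. Mcm5, part of the helicase that opens DNA for replication, had 3.14 FPKM in coculture and 25.03 FPKM alone, and Gins2, which acts with that helicase, 1.17 FPKM in coculture and 11.01 FPKM alone. The log2 differences of these were -2.65 and -2.47. Uhrf1, which brings DNA methyltransferase to replicating DNA, had 4.21 FPKM in coculture and 28.7 FPKM alone, a log2 difference of -2.51. Further genes of mitosis among the 15 were Aurka, Aunip, Cdc20, Plk1, Aurkb and Ube2c, with log2 differences from -2.60 to -2.35. Of the 15 these replication and mitosis genes make up 10 together with Dctpp1. The remaining 4 encode secreted or cornified proteins. Mcpt8, a basophil and mast cell protease, had 2.06 FPKM in coculture and 25.1 FPKM alone, from 27 reads in coculture and 395 alone. Gzme, granzyme E, had 0.996 FPKM in coculture and 8.99 FPKM alone, Lce1h, of the cornified envelope, had 1.72 FPKM in coculture and 13.7 FPKM alone, and Ppbp, a platelet chemokine, had 0.211 FPKM in coculture and 5.56 FPKM alone, from 3 reads in coculture and 95 alone. All 30 genes of both directions kept their direction and a size of at least 1 with the trend over gene length removed and in the pair without QNZ. Over all measured genes 8.29% were higher and 6.41% lower with that trend removed, and 24.0% were higher and 11.2% lower in the pair without QNZ. Exons of Cdc20, Gins2, Plk1 and Ube2c overlap a gene on the other strand.

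**Figure D2:**
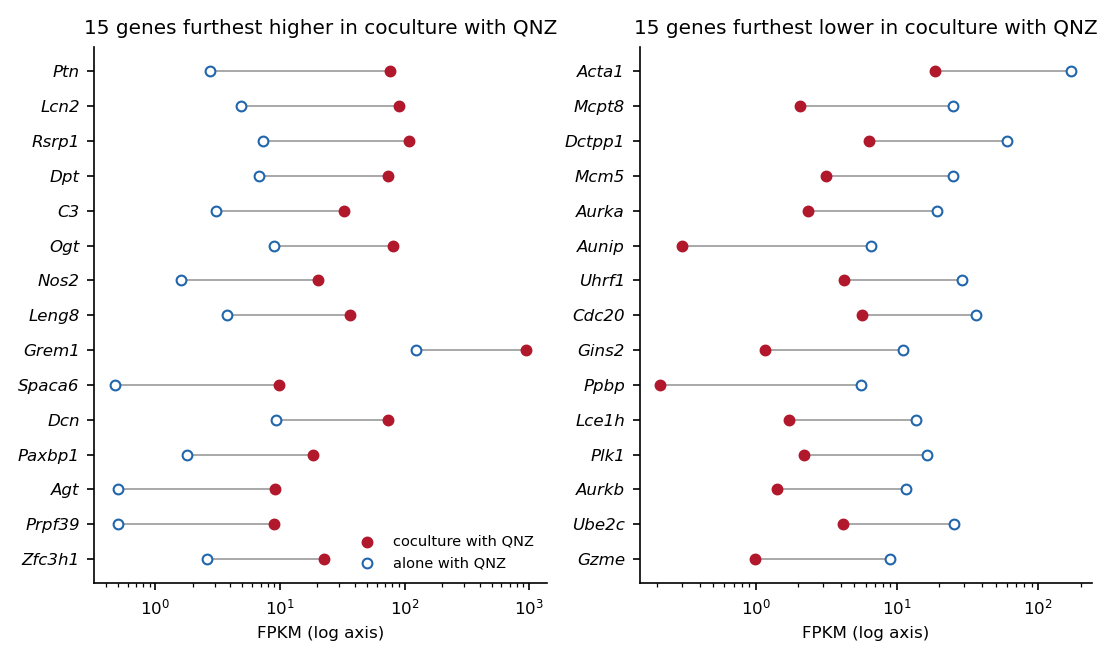
FPKM, on a log axis, of the 15 genes furthest higher (left panel) and the 15 furthest lower (right panel) in coculture with QNZ; filled red points are the coculture library and open blue points the library of fibroblasts alone, both with QNZ. Ptn had 76.7 FPKM in coculture and 2.77 FPKM alone, and Acta1 18.5 FPKM in coculture and 172 FPKM alone.

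Many listed targets of NF-κB were higher in coculture, and both cultures carried its inhibitor. Of 26 inflammatory and acute-phase targets listed, 20 were measured, 11 of them higher and 0 lower, with a median log2 difference of 1.12, beside 14.3% higher and 8.90% lower and a median of 0.18 over all measured genes. Beside Lcn2, C3 and Nos2 above, Hp, the haemoglobin-binding acute-phase protein haptoglobin, had 19.6 FPKM in coculture and 2.17 FPKM alone, a log2 difference of 2.70. Saa3, an acute-phase apolipoprotein, had 146 FPKM in coculture and 37.6 FPKM alone, a log2 difference of 1.93. Ptgs2, the cyclooxygenase of inflammatory prostaglandin synthesis, was the most abundant of the list with 289.8 FPKM in coculture and 126 FPKM alone, and its read ratio was 2.295 (95% interval 2.24 to 2.35). These genes span a wide range of levels in both libraries. Ptx3, a pattern-recognition pentraxin, had 34.5 FPKM in coculture and 7.94 FPKM alone, and Steap4, a metalloreductase, had 9.37 FPKM in coculture and 1.99 FPKM alone. Il6, the cytokine interleukin-6, had 14.5 FPKM in coculture and 5.17 FPKM alone, a log2 difference of 1.33. The list was not uniform. Ier3 had 151 FPKM in coculture and 254 FPKM alone, a log2 difference of -0.74, and Icam1, the leukocyte adhesion molecule, had one of 0.49. With the length trend removed 10 were higher and 0 lower, and in the pair without QNZ 10 were higher and 0 lower.

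The subunits, kinases and inhibitors of NF-κB itself differed less. Of 23 such genes listed, 22 were measured, 3 of them higher and 0 lower, with a median log2 difference of 0.72. Under median-of-ratios scaling 2 were higher and 1 lower. The count of 3 was near the share of 14.3% higher over all measured genes. The counted genes were Nfkbia, the IκB protein that NF-κB induces against itself, with 82.4 FPKM in coculture and 34.8 FPKM alone and a log2 difference of 1.22, Bcl3, a nuclear IκB protein, with 1.33, and the subunit Rel, with 1.16 from levels of 2.403 FPKM in coculture and 0.518 FPKM alone. Rela, the main activating subunit, had 37.1 FPKM in coculture and 37.7 FPKM alone, a log2 difference of -0.02. Nfkb1 had 0.86 and Nfkb2 0.22. Nfkbib, another classical IκB, had 11.1 FPKM in coculture and 21.6 FPKM alone, a log2 difference of -0.90. Tnfaip3, a deubiquitinase that shuts the pathway off, had one of 0.31, against 1.10 in the pair without QNZ. In fibroblasts alone, the levels with QNZ and without it were 4.86 and 5.32 FPKM for Lcn2, 1.62 and 2.19 FPKM for Nos2 and 34.8 and 33.4 FPKM for Nfkbia. The chemokines Cxcl10 and Ccl11 differed more between these libraries. Cxcl10 had 38.3 FPKM with QNZ and 174.8 FPKM without it, and Ccl11 3.397 and 35.2 FPKM. The effect of QNZ in fibroblasts alone was not tested.

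The promoters of Il6, Ptx3 and Nfkbia are shown because they hold the letters of the NF-κB consensus within 50 bases of the start in genes that were higher in coculture. They are RefSeq sequences of GRCm38.p6 (the build mm10), from 250 bases before to 50 bases after the start, 5′ to 3′ on the strand of the gene, with the matching letters in capitals. Both strands were searched. The window of Il6 is chr5:30012864-30013163 (plus strand), that of Ptx3 chr3:66219637-66219936 (plus strand, with a match on each strand that overlap) and that of Nfkbia chr12:55492598-55492897 (minus strand).
Il6: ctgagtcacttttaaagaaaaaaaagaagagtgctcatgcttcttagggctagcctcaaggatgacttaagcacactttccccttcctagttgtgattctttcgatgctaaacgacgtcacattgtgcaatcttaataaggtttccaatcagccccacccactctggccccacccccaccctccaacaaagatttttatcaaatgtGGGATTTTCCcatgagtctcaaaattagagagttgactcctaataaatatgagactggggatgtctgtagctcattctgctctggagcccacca
Ptx3: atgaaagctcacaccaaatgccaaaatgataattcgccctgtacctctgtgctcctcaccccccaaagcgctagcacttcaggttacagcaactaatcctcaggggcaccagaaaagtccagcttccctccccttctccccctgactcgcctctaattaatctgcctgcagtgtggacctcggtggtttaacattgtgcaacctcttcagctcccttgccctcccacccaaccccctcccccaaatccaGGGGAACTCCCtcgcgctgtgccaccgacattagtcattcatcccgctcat
Nfkbia: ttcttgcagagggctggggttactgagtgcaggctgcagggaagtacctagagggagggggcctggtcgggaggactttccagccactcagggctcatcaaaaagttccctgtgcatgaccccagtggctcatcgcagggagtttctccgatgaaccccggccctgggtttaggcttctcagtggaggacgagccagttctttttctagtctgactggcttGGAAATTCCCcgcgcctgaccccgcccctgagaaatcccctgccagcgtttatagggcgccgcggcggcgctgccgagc
The consensus was found in 4.51% of all 32851 RefSeq promoters, in 7 of 15 promoters of the measured inflammatory targets (46.7%) and in 10 of 25 promoters of the subunits and inhibitors (40.0%). It was in 5.29% of the promoters of all measured genes, in 5.44% of those of genes counted higher in coculture and in 4.17% of those counted lower. The targets were listed because they are known to respond to NF-κB, so the share in that list describes the list and not these libraries. A match is no measured site. Of the 11078 measured genes, 8825 had a RefSeq promoter by symbol.

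Chemokines, the small proteins that guide leukocytes, went in both directions. Among 18 measured of 33 listed chemokines, 5 were higher and 1 lower (median log2 difference 0.61), against 10 higher and 1 lower with the length trend removed, and 7 higher and 4 lower in the pair without QNZ. Ccl11, eotaxin, had 23.7 FPKM in coculture and 3.397 FPKM alone, a log2 difference of 2.49. In the pair without QNZ it had 25.2 FPKM in coculture and 35.2 FPKM alone, a log2 difference of -0.47, so that the lowest of the 4 libraries was fibroblasts alone with QNZ. Cxcl12, which retains blood stem cells in the marrow, had 94.01 FPKM in coculture and 27.3 FPKM alone, a log2 difference of 1.74. The neutrophil chemokine Cxcl2 had one of 1.27 and Ccl20 one of 1.03. The most abundant, Ccl7, a monocyte chemokine, had 921 FPKM in coculture and 646 FPKM alone, a log2 difference of 0.51. Of 19 listed chemokine receptors only Ackr3, a scavenger of Cxcl12, and Ackr1 were measured, with log2 differences of 2.07 and 0.86.

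Some interleukins and receptors of cytokines were higher in coculture. Of 24 interleukins and cytokines of the IL-6 family listed, 12 were measured, 3 of them higher and 0 lower, with a median log2 difference of 0.27, against 5 higher and 0 lower with the length trend removed. Besides Il6, the counted genes were Clcf1, which signals through gp130, with 10.6 FPKM in coculture and 2.88 FPKM alone, and the alarmin Il33, with 2.48 FPKM in coculture and 0.681 FPKM alone from 94 reads in coculture and 31 alone. Csf1, the macrophage growth factor, was the most abundant with 288 FPKM in coculture and 307 FPKM alone, a log2 difference of -0.09. Of 26 cytokine receptors and JAK-STAT genes listed, 24 were measured, 7 of them higher and 0 lower, with a median log2 difference of 0.72. Osmr, the receptor of oncostatin M, had 31.9 FPKM in coculture and 6.11 FPKM alone, a log2 difference of 2.21, and Il1rap and Il1r1, which together bind IL-1, had 1.99 and 1.66. The kinase Jak2 had 16.3 FPKM in coculture and 3.93 FPKM alone, a log2 difference of 1.81. Each of the 24 measured receptors and JAK-STAT genes had a log2 difference above 0 on the deposited scale. Their median length was 6182.5 bases, against 4498.5 bases over all measured genes. All measured genes of 5311 to 6276 bases had a median log2 difference of 0.35 and a lower quartile of -0.13. Subtracting the length curve lowered the median of these 24 genes from 0.72 to 0.44, and 7 then counted as higher. Whether each of the 24 stayed above 0 after that subtraction is not reported here.

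Most of 10 cytokines that the study named were at low levels in the pair with QNZ. Dkk1, a secreted inhibitor of Wnt signalling, had 0 reads in both libraries with QNZ, which allows up to 0.228 CPM (reads per 1000000) in coculture and 0.190 CPM alone, and in the libraries without QNZ it had 21 reads in coculture and 2 alone. The difference of Dkk1 is therefore not detectable in the pair with QNZ at this depth. Fgf11, an intracellular member of the fibroblast growth factor family, had 42 reads in coculture and 5 alone, a ratio of 10.1 (95% interval 3.99 to 32.6). Ccl3, a macrophage chemokine, had 26 reads in coculture and 4 alone, a ratio of 7.80 (2.71 to 30.7), and its log2 difference was 1.43. Il33 had a ratio of 3.64 (2.40 to 5.65). Pdgfb, a chain of platelet-derived growth factor, had 40 reads in coculture and 14 alone, a ratio of 3.43 (1.83 to 6.82), and Ccl28 38 reads in coculture and 16 alone, a ratio of 2.85 (1.55 to 5.47). For Egf, the epidermal growth factor, 25 reads in coculture and 1 alone gave a ratio of 30.0 with an interval of 4.91 to 1231. Fgf9 had 1 read in coculture and 0 alone, Fgf12 9 reads in coculture and 3 alone, and Fgf16 2 reads in coculture and 4 alone, and the ratio intervals of these 3 genes included 1. Of the 10 genes only Ccl3 and Il33 reached a log2 difference of 1, and 7 of the 10 were below 1 FPKM in both libraries. The scale of log2(FPKM + 1) understates the change of such low genes, so the read ratios of Fgf11 and Egf are large beside their differences.

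Genes induced by interferon were mixed. Among 43 measured of 44 listed interferon-stimulated genes, 6 were higher and 3 lower (median log2 difference 0.12). These counts were near the shares over all measured genes, 14.3% higher and 8.90% lower. The median was -0.16 under median-of-ratios scaling and was 0.51 as TPM, so the list as a whole has no direction that holds under each scaling. Isg15, a ubiquitin-like modifier, had 313 FPKM in coculture and 875 FPKM alone, a log2 difference of -1.48, and Bst2, which tethers viral particles to the cell, had 440.5 FPKM in coculture and 984 FPKM alone, a log2 difference of -1.16. Ifi35 was the other one counted lower, with -1.14. On the other side stood Ddx60, a helicase of virus sensing, with 5.38 FPKM in coculture and 0.825 FPKM alone, and Gbp7, Oas2 and Iigp1, with log2 differences of 1.76, 1.64 and 1.64. Stat2, which carries the type I interferon signal, had 68.7 FPKM in coculture and 28.99 FPKM alone, a log2 difference of 1.22. In the pair without QNZ the same 43 genes gave 3 higher and 15 lower, with a median of -0.47, where Isg15 had a log2 difference of -2.65, against -1.48 with it. Oas1a, which makes the activator of RNase L, had 32.3 FPKM in coculture and 57.9 FPKM alone with QNZ, and 34.2 FPKM in coculture and 153 FPKM alone without it, log2 differences of -0.82 and -2.13. The difference between the pairs was not tested.

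Genes of presentation on MHC class I were mixed too. Of 23 genes of MHC class I presentation listed, 23 were measured, 3 of them higher and 2 lower, with a median log2 difference of 0.15. Both counts were near the shares over all measured genes, 14.3% higher and 8.90% lower. The median was -0.14 with median-of-ratios scaling. Nlrc5, the transactivator of class I genes, had 13.8 FPKM in coculture and 2.97 FPKM alone, a log2 difference of 1.90, and the class I genes H2-Q6 and H2-Q4 had 1.76 and 1.08. Psmb10, a catalytic subunit of the immunoproteasome, had 6.47 FPKM in coculture and 20.1 FPKM alone, a log2 difference of -1.50, and Psme2, of its activator, had -1.22. B2m, the light chain and the most abundant member, had 2101 FPKM in coculture and 2338 FPKM alone, a log2 difference of -0.15. The H2-Q genes are near-identical copies, so reads may have been split among them. In the pair without QNZ 2 were higher and 7 lower.

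**Figure D3:**
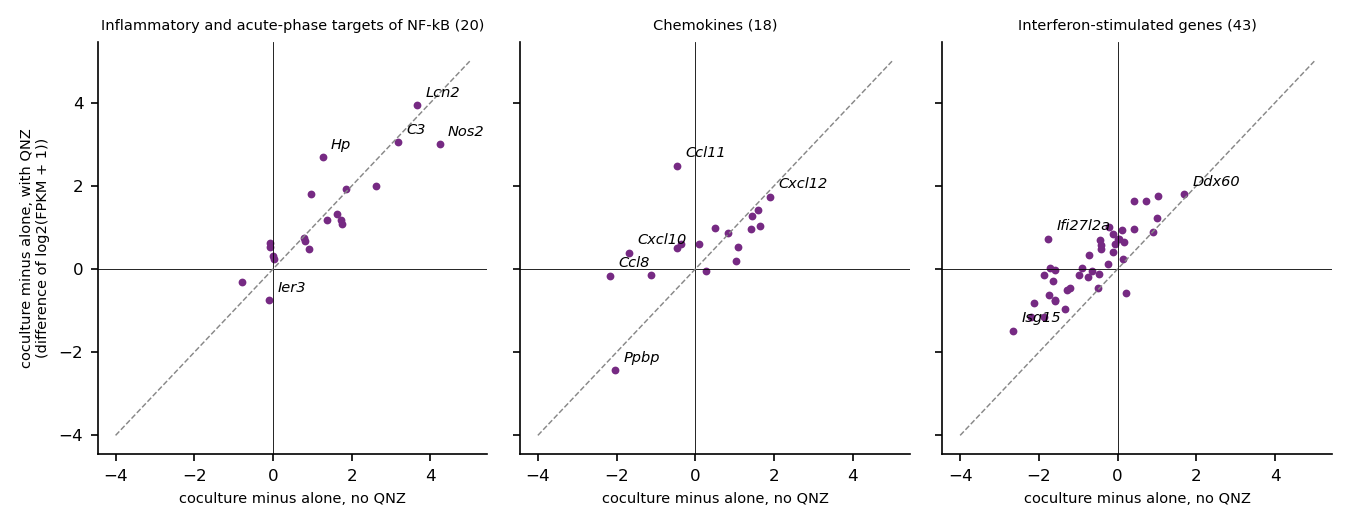
Log2(FPKM + 1) in coculture minus that alone, with QNZ (vertical axis) and without QNZ (horizontal axis), for the measured members of 3 gene lists (20 inflammatory targets of NF-κB, 18 chemokines and 43 interferon-stimulated genes), 1 point per gene and 1 library per condition, with the line of equal differences. Most targets of NF-κB lie above 0 in both pairs. Ccl11 (2.49 with QNZ, -0.47 without) and most interferon-stimulated genes lie above the line of equal differences, with Isg15 at -1.48 with QNZ and -2.65 without.

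Secreted growth factors were higher in coculture in more cases than lower. Of 44 secreted growth factors listed, 31 were measured, 10 of them higher and 1 lower, with a median log2 difference of 0.62. After Ptn came Ereg, a ligand of the EGF receptor, with 30.8 FPKM in coculture and 6.36 FPKM alone, Pgf, a VEGF-family ligand, with 17.99 FPKM in coculture and 3.602 FPKM alone, and Fgf2, with 9.596 FPKM in coculture and 1.64 FPKM alone. The log2 differences of these were 2.11, 2.04 and 2.01. Vegfa, the main angiogenic factor and the most abundant of the list, had 179 FPKM in coculture and 52.98 FPKM alone, a read ratio of 3.39 (95% interval 3.26 to 3.52). Fgf7 and Fgf10, which fibroblasts make for epithelia, had log2 differences of 1.72 and 1.80. Of 28 receptors of growth factors 20 were measured, 9 of them higher and 0 lower (median 0.82). Pdgfra and Pdgfrb, the receptors of platelet-derived growth factor, were among them. Pdgfra had 24.95 FPKM in coculture and 5.54 FPKM alone, a log2 difference of 1.99, and Pdgfrb had 68.7 FPKM in coculture and 26.1 FPKM alone, a log2 difference of 1.36. Only 4 receptors were counted with the length trend removed. Receptors were long, with a median length of 9286 bases.

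The TGF-β system, which drives matrix synthesis in fibroblasts, was higher in several binding proteins and receptors. Among 31 measured of 32 listed ligands, receptors and regulators of TGF-β and activin, 13 were higher and 0 lower (median log2 difference 0.71). Ltbp2, a latent TGF-β binding protein of elastic fibres, had 189 FPKM in coculture and 36.6 FPKM alone, a log2 difference of 2.34, and Tgfbi, a TGF-β-induced matrix protein, had 9.58 FPKM in coculture and 1.16 FPKM alone, a log2 difference of 2.29. The receptors Tgfbr3 and Tgfbr1 had log2 differences of 2.10 and 1.55. The most abundant was Thbs1, thrombospondin 1, which can release TGF-β from its latent form, with 2238 FPKM in coculture and 876 FPKM alone. The ligands Tgfb1 and Tgfb3 were not counted and had 0.17 and -0.39. With the length trend removed 7 of these genes were higher.

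Antagonists of BMPs, the factors that drive bone formation, were led by Grem1. Of 20 BMP antagonists listed, 13 were measured, 5 of them higher and 0 lower, with a median log2 difference of 0.92. Fstl1, a follistatin-like protein, had 403 FPKM in coculture and 183 FPKM alone, and Smad6 and Smad7, which block the signal inside the cell, had log2 differences of 1.31 and 1.03. Nog, noggin, had 1.97 FPKM in coculture and 1.08 FPKM alone, a log2 difference of 0.51, and Bambi, a decoy receptor, had -0.17. Of 22 BMP ligands, receptors and Id targets listed, 15 were measured, 7 of them higher and 0 lower, with a median log2 difference of 0.75. Bmp2 had 6.33 FPKM in coculture and 1.09 FPKM alone, a log2 difference of 1.81, and the receptor gene Bmpr2 one of 2.04. Of the Id genes, which BMP signals induce, Id2 and Id4 had 1.41 and 1.40, and the most abundant, Id3, had 0.28.

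Some genes of the Wnt pathway and of mesenchymal lineages were higher, beside 14.3% higher and 8.90% lower over all measured genes. The counts of the secreted Wnt antagonists and of the Wnt targets were near that share. Among 20 measured of 32 listed Wnt ligands, receptors and R-spondins, 5 were higher and 0 lower (median log2 difference 0.60). With the length trend removed 4 of these were higher and the median was 0.12. Rspo2, which amplifies Wnt signals, had 6.796 FPKM in coculture and 0.843 FPKM alone, a log2 difference of 2.08, and the receptor gene Fzd7 had 64.3 FPKM in coculture and 25.6 FPKM alone. Of 17 secreted Wnt antagonists listed, 7 were measured, 1 of them higher and 0 lower, with a median log2 difference of 0.74. The counted one was Sfrp1, with 6.64 FPKM in coculture and 2.28 FPKM alone. Of 15 targets of Wnt and β-catenin listed, 7 were measured, 1 of them higher and 0 lower, with a median log2 difference of 0.64. This was Nkd2, with a log2 difference of 1.48, while Ccnd1 had -0.64. Among 10 measured of 20 listed osteoblast lineage genes, 2 were higher and 0 lower (median log2 difference 0.83). With the length trend removed 3 were higher and the median was 0.39. Spp1, osteopontin, had 1026 FPKM in coculture and 473 FPKM alone, a log2 difference of 1.12, Sp7, the osteoblast transcription factor, had 2.26 FPKM in coculture and 0.522 FPKM alone, and Runx2 had one of 0.87. Of 24 chondrogenic and adipogenic genes listed, 8 were measured, 5 of them higher and 0 lower, with a median log2 difference of 1.31. Among these, the factors Cebpb, Sox9, Klf4 and Pparg had log2 differences of 1.81, 1.80, 1.63 and 1.16.

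Many genes of the extracellular matrix were higher. Of 38 collagens listed, 26 were measured, 15 of them higher and 0 lower, with a median log2 difference of 1.19. Col5a3 had 12.9 FPKM in coculture and 1.55 FPKM alone, Col12a1 102 FPKM in coculture and 21.6 FPKM alone and Col6a1 135 FPKM in coculture and 36.02 FPKM alone, with log2 differences of 2.45, 2.19 and 1.88. The chains of type I collagen, the main fibrillar form, were not counted. Col1a1, the most abundant, had 334 FPKM in coculture and 222 FPKM alone, a log2 difference of 0.59, and Col1a2 had one of 0.80. The basement membrane chains Col4a1 and Col4a2 had -0.30 and -0.29. Collagen genes were long, with a median of 7727 bases, and with the length trend removed 8 were higher and the median was 0.64. Among 10 measured of 17 listed small leucine-rich proteoglycans, 6 were higher and 0 lower (median log2 difference 1.31), and this list, of median length 3428 bases, had 8 counted with the trend removed. Besides Dcn, its member Prelp had 16.3 FPKM in coculture and 1.75 FPKM alone, Aspn had 4.49 FPKM in coculture and 0.485 FPKM alone, and Bgn, biglycan, the most abundant, had 737 FPKM in coculture and 402 FPKM alone.

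Other matrix genes followed with a smaller median. Of 52 matrix glycoproteins, proteoglycans and elastic fibre genes listed, 42 were measured, 14 of them higher and 0 lower, with a median log2 difference of 0.74, against 8 higher and 0 lower with the length trend removed. Thbs2, an angiogenesis inhibitor, had 355 FPKM in coculture and 76.5 FPKM alone, a log2 difference of 2.198, and Vcan, versican, had 1.79. Ccn2, connective tissue growth factor, had 205 FPKM in coculture and 299 FPKM alone, a log2 difference of -0.54. Of 25 collagen crosslinking and hydroxylation enzymes listed, 25 were measured, 3 of them higher and 0 lower, with a median log2 difference of 0.32. The count of 3 was near the share of 14.3% higher over all measured genes. Lox, which crosslinks collagen, had 784 FPKM in coculture and 274 FPKM alone, a log2 difference of 1.51. Of 40 listed proteases of the matrix and their inhibitors 32 were measured, 14 of them higher and 1 lower (median 0.89). The collagenase Mmp13 had 31.03 FPKM in coculture and 5.904 FPKM alone, a log2 difference of 2.21, the stromelysin Mmp3 168 FPKM in coculture and 48.8 FPKM alone and the gelatinase Mmp2 182 FPKM in coculture and 57.8 FPKM alone. Plau, urokinase, was the one counted lower, with 8.32 FPKM in coculture and 19.97 FPKM alone and a log2 difference of -1.17. Among 20 measured of 29 listed integrins and cadherins, 8 were higher and 0 lower (median log2 difference 0.68). Cdh11, the fibroblast cadherin, had 103 FPKM in coculture and 34.03 FPKM alone, but with the length trend removed 0 of this list were counted.

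Several contractile genes were lower. Of 36 contractile and actin cytoskeleton genes listed, 32 were measured, 0 of them higher and 12 lower, with a median log2 difference of -0.75. Beside Acta1, Cnn1, calponin, had 13.6 FPKM in coculture and 69.4 FPKM alone, a log2 difference of -2.26, and Actg2, an enteric smooth muscle actin, had 10.3 FPKM in coculture and 39.8 FPKM alone, a log2 difference of -1.86. Acta2, the smooth muscle actin that marks myofibroblasts and an abundant member, had 456 FPKM in coculture and 1217 FPKM alone, a read ratio of 0.375 (95% interval 0.368 to 0.382). Myl9 and Tpm2, the myosin light chain and a tropomyosin, had log2 differences of -1.67 and -1.34. The long heavy-chain genes Myh9 and Myh10, non-muscle myosins, had 0.12 and 0.47. Actin genes share much of their coding sequence, so reads may have been split among them. With the length trend removed 12 were lower and 0 higher, and without QNZ 14 lower and 1 higher. Of 28 genes of YAP, TAZ, TEADs and their targets listed, 27 were measured, 3 of them higher and 0 lower, with a median log2 difference of 0.44, against 1 higher and 1 lower with the length trend removed and 2 higher and 2 lower under median-of-ratios scaling. Of the 27 genes, 22 had a log2 difference above 0 and 5 had one below 0, where the median over all measured genes was 0.18. YAP and TAZ act through TEAD factors. The targets Ankrd1 and Ccn2 were among the 5 below 0, with log2 differences of -0.75 and -0.54. The kinase gene Lats1 had 17.8 FPKM in coculture and 5.04 FPKM alone.

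Most genes of DNA replication and mitosis were lower. Among 47 measured of 48 listed genes of DNA replication and nucleotide supply, 0 were higher and 36 lower (median log2 difference -1.43). Mcm3, of the helicase, had 5.63 FPKM in coculture and 30.4 FPKM alone, Rrm2, which makes deoxynucleotides, had 12.2 FPKM in coculture and 52.3 FPKM alone, and Chaf1a, which places histones on new DNA, had 1.700 FPKM in coculture and 10.3 FPKM alone. The log2 differences of these were -2.24, -2.01 and -2.06. Only Rfc1, of the clamp loader, had a difference above 0, at 0.13. Of 54 genes of mitosis and chromosome segregation listed, 53 were measured, 0 of them higher and 33 lower, with a median log2 difference of -1.28. Cdc20, the activator of the anaphase-promoting complex, had 5.66 FPKM in coculture and 36.3 FPKM alone, from 139 reads in coculture and 1070 alone, a log2 difference of -2.49. Birc5, survivin, had 1.63 FPKM in coculture and 11.1 FPKM alone, a log2 difference of -2.20, and Ccnb2, a mitotic cyclin, had 3.53 FPKM in coculture and 21.2 FPKM alone, a log2 difference of -2.29. Smc4, of condensin, stood apart with 10.99 FPKM in coculture and 5.02 FPKM alone, a log2 difference of 0.99. These counts differed little with the length trend removed, at 34 lower of the replication list and 38 of the mitosis list. In the pair without QNZ they were 28 and 25, and the medians were -1.22 and -0.74.

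The promoters of Cdc20, Plk1 and Cdk1 are shown because they hold the letters of a cell cycle homology region near their start. Many mitotic genes are known to be held down outside division through this element, and its part in these differences was not tested. Capitals mark the letters TTTGAA, searched on both strands, in RefSeq windows of GRCm38.p6 from 250 bases before to 50 after the start, on the strand of the gene. The window of Cdc20 is chr4:118437294-118437593 (minus strand), that of Plk1 chr7:122159185-122159484 (plus strand) and that of Cdk1 chr10:69352863-69353162 (minus strand).
Cdc20: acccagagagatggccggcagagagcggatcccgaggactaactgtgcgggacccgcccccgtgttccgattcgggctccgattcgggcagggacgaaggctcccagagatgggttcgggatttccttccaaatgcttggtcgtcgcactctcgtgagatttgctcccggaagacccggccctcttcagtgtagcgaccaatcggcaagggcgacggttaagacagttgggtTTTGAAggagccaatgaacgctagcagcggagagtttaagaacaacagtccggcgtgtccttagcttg
Plk1: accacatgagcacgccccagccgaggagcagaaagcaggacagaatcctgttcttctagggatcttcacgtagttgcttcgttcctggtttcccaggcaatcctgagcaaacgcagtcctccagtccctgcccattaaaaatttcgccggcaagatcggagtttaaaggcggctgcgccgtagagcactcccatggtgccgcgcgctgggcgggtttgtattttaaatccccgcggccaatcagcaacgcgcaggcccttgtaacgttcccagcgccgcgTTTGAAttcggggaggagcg
Cdk1: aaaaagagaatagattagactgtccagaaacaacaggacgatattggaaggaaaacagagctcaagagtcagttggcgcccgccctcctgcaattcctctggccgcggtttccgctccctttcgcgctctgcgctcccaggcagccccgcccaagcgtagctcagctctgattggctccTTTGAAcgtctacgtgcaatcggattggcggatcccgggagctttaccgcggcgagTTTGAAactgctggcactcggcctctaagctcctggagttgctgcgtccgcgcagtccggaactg
The log2 differences of these genes were -2.49, -2.43 and -2.15. The letters were in 34 of 47 promoters of the measured mitosis list (72.3%), in 5 of 46 of the replication list (10.9%) and in 17.9% of all RefSeq promoters. The share was 11.7% over the promoters of all measured genes, and among those counted lower it was 15.1%, and among those counted higher 10.95%. The mitosis list was made of known mitotic genes, so its share describes the list and not these libraries. A match of the letters is no measured site.

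The regulators of the entry into the cycle were not uniform. Of 25 G1 cyclins, CDK inhibitors and pocket proteins listed, 24 were measured, 2 of them higher and 2 lower, with a median log2 difference of -0.15, and as TPM the median was 0.24, against -0.44 by median of ratios. Ccne1, cyclin E1, had 7.83 FPKM in coculture and 25.8 FPKM alone, a log2 difference of -1.60, and the inhibitor genes Cdkn1b and Cdkn2d had 1.29 and -1.09. Cdkn1a, the p21 inhibitor and the most abundant of these genes, had 171 FPKM in coculture and 188 FPKM alone, a log2 difference of -0.14. Among 28 measured of 28 listed p53 target genes, 4 were higher and 1 lower (median log2 difference 0.39). The count higher in this list was near the share of 14.3% over all measured genes. Phlda3 and Plk2 were its most abundant members, with log2 differences of -0.73 and 0.16, and Trp53inp1 and Mdm4 had 2.68 and 2.29. Of 35 histone genes listed, 16 were measured, 1 of them higher and 4 lower, with a median log2 difference of -0.02, against 4 higher and 1 lower with the length trend removed. The median was 0.36 as TPM and 0.42 with the length trend removed. H2afz, a replication-independent variant, had 41.3 FPKM in coculture and 174 FPKM alone, a log2 difference of -2.04, and H1f0, a linker histone of resting cells, had 111 FPKM in coculture and 43.9 FPKM alone, a log2 difference of 1.32.

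Protein synthesis and energy genes were lower as groups. Of 79 cytosolic ribosomal proteins listed, 78 were measured, 0 of them higher and 75 lower, with a median log2 difference of -1.65. Rplp1, the most abundant, had 1300.0 FPKM in coculture and 6413 FPKM alone, a log2 difference of -2.30, and Rps12 had 157 FPKM in coculture and 738 FPKM alone. The smallest differences were those of Rps10 and Rpl4, at -0.40 and -0.84. Ribosomal protein genes were short, with a median of 1776 bases, have many processed copies in the genome, and with the length trend removed 49 were lower and the median was -1.11. Among 73 measured of 75 listed respiratory chain subunits encoded in the nucleus, 0 were higher and 59 lower (median log2 difference -1.41). Cycs, cytochrome c, had 14.8 FPKM in coculture and 62.6 FPKM alone, a log2 difference of -2.01, and Cox7a2, of complex IV, had 25.4 FPKM in coculture and 112 FPKM alone, a log2 difference of -2.10. With the trend removed 23 of them were lower. Proteins of the same complexes that the mitochondrial genome encodes went the other way. Of 13 mitochondrially encoded proteins listed, 12 were measured, 6 of them higher and 1 lower, with a median log2 difference of 0.84, against 10 higher and 0 lower with the length trend removed. The gene mt-Co1, of complex IV and the most abundant, had 5023 FPKM in coculture and 1823 FPKM alone, a log2 difference of 1.46, mt-Nd4, of complex I, had 614 FPKM in coculture and 174 FPKM alone, and mt-Nd3 was the one counted lower, with 0.655 FPKM in coculture and 3.64 FPKM alone. Mitochondrial RNA took more than 2 times the share of reads in coculture, and the part of RNA quality in this was not tested.

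Many proteasome and chaperone genes were lower too. Of 37 proteasome subunits listed, 37 were measured, 0 of them higher and 24 lower, with a median log2 difference of -1.19, against 0 higher and 16 lower with the length trend removed. Psmb3, of the core ring, had 27.1 FPKM in coculture and 115 FPKM alone, a log2 difference of -2.04, and Psma2, of the outer ring, one of -2.01, while Psme4, a nuclear activator, had 0.85. Among 39 measured of 39 listed chaperones and chaperonins, 0 were higher and 12 lower (median log2 difference -0.68). Hspe1, the mitochondrial co-chaperonin, had 79.9 FPKM in coculture and 265 FPKM alone, a log2 difference of -1.72, and Hspa5 and Hsp90b1, of the endoplasmic reticulum, had 0.08 and 0.62. Of 53 genes of autophagy and lysosomes listed, 52 were measured, 3 of them higher and 0 lower, with a median log2 difference of 0.03, and the median was -0.22 with median-of-ratios scaling and -0.01 with the length trend removed. Npc1, the lysosomal cholesterol exporter, had 13.8 FPKM in coculture and 4.68 FPKM alone, a log2 difference of 1.38.

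Lipid genes split by pathway. Of 27 genes of cholesterol synthesis and uptake listed, 26 were measured, 0 of them higher and 8 lower, with a median log2 difference of -0.74. Acat2, which joins acetyl-CoA units, had 8.01 FPKM in coculture and 37.8 FPKM alone, Mvk, mevalonate kinase, had 7.16 FPKM in coculture and 26.5 FPKM alone, and Fdft1, squalene synthase, had 21.5 FPKM in coculture and 50.4 FPKM alone. Among 23 measured of 26 listed genes of fatty acid synthesis and desaturation, 2 were higher and 1 lower (median log2 difference -0.06). As TPM this median was 0.31. Fads2, a desaturase, had 15.8 FPKM in coculture and 39.6 FPKM alone, a log2 difference of -1.27, and Acsl4, which activates polyunsaturated fatty acids, had one of 1.30.

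Genes of the hypoxia response and of glycolysis diverged within 1 list. Of 49 genes of these pathways listed, 48 were measured, 11 of them higher and 3 lower, with a median log2 difference of 0.42. Ero1l, an oxidase of disulfide formation, had 153 FPKM in coculture and 31.4 FPKM alone, a log2 difference of 2.25, Slc2a3, a glucose transporter, had 4.03 FPKM in coculture and 0.4199 FPKM alone, and Egln3, a hydroxylase that marks HIF-1 for decay, had 45.1 FPKM in coculture and 14.4 FPKM alone. Hif1a itself had 63.5 FPKM in coculture and 20.9 FPKM alone, a log2 difference of 1.56. Glycolytic enzymes lay on both sides. Eno2, an enolase, had a log2 difference of 1.89, whereas Ldha, lactate dehydrogenase, had 316 FPKM in coculture and 699 FPKM alone, Tpi1 had 195 FPKM in coculture and 404 FPKM alone, and Pgk1, the most abundant of the list, had a log2 difference of -0.79. In the pair without QNZ 24 were higher and 2 lower, with Ero1l at 3.68 and Egln3 at 2.89. The core ACGTG of the hypoxia response element was in 30 of 57 promoters of the list (52.6%) and in 19.6% of all RefSeq promoters. It was in 25.98% of the promoters of all measured genes, in 23.7% of those counted higher and in 25.4% of those counted lower. The list was made of known genes of these pathways, so its share describes the list and not these libraries. A match of the core is no measured site.

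Genes of stress pathways were counted in both directions. Of 44 ATF4 targets and genes of amino acid synthesis and transport listed, 43 were measured, 5 of them higher and 4 lower, with a median log2 difference of -0.08, against 2 higher and 5 lower with the length trend removed. The median was -0.37 with median-of-ratios scaling, 0.30 as TPM and 0.05 with the length trend removed. Slc7a11, the cystine transporter, had 10.02 FPKM in coculture and 2.01 FPKM alone, a log2 difference of 1.87, whereas Phgdh, of serine synthesis, had 116 FPKM in coculture and 309 FPKM alone, a log2 difference of -1.41, and Psat1 and Psph of the same pathway had -1.23 and -1.42. Without QNZ 11 of these genes were higher and 2 lower. Among 28 measured of 32 listed NRF2 targets and metallothioneins, 1 were higher and 5 lower (median log2 difference -0.60). Prdx1, which clears peroxides, had 103 FPKM in coculture and 324 FPKM alone, thioredoxin, Txn1, had 113 FPKM in coculture and 332 FPKM alone, and Hmox1, haem oxygenase, the most abundant, had 398 FPKM in coculture and 864 FPKM alone, a log2 difference of -1.12. Of 37 immediate early and AP-1 genes listed, 34 were measured, 3 of them higher and 1 lower, with a median log2 difference of 0.37, against 1 higher and 0 lower with the length trend removed. Nr4a2, an orphan nuclear receptor, had 1.55, and Dusp5, an ERK phosphatase, had 9.62 FPKM in coculture and 24.2 FPKM alone, a log2 difference of -1.25.

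Splicing regulators were among the higher groups. Of 46 splicing regulators listed, 46 were measured, 19 of them higher and 1 lower, with a median log2 difference of 0.68. Clk1, a kinase of SR splicing proteins, had 12.2 FPKM in coculture and 1.51 FPKM alone, a log2 difference of 2.39. Nktr and Pnisr, which carry arginine-serine stretches, had log2 differences of 2.57 and 2.44. Rbm39, a splicing factor, had 57.3 FPKM in coculture and 13.8 FPKM alone, and U2af1, which reads the 3′ splice site, was the one counted lower, with 17.2 FPKM in coculture and 35.9 FPKM alone. The list was long, with a median of 7289 bases, and 9 were higher with the length trend removed.

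Several smaller lists had the following counts. Among 17 measured of 21 listed circadian clock genes, 5 were higher and 0 lower (median log2 difference 0.37), against 2 higher and 0 lower with the length trend removed. Clock had a log2 difference of 1.86 and Arntl one of 1.12. Of 39 Hox genes listed, 27 were measured, 5 of them higher and 2 lower, with a median log2 difference of 0.31, against 8 higher and 0 lower with the length trend removed. Hoxc8 had 19.7 FPKM in coculture and 6.42 FPKM alone and Hoxc12 0.147 FPKM in coculture and 2.15 FPKM alone, with log2 differences of 1.48 and -1.46. These genes hold the positional identity that fibroblasts keep in culture. Of 23 imprinted growth genes listed, 14 were measured, 5 of them higher and 0 lower, with a median log2 difference of 0.52, against 1 higher and 0 lower with the length trend removed, and Dlk1, a Notch-like growth regulator, had 34.1 FPKM in coculture and 8.03 FPKM alone, a log2 difference of 1.96. Among 14 measured of 18 listed IGF binding proteins and IGF signalling genes, 6 were higher and 0 lower (median log2 difference 0.60), against 2 higher and 0 lower with the length trend removed, and Igfbp3, which carries IGF, had 10.2 FPKM in coculture and 1.21 FPKM alone, a log2 difference of 2.34. Of 23 genes of the retinoic acid pathway listed, 15 were measured, 3 of them higher and 2 lower, with a median log2 difference of 0.19. Under median-of-ratios scaling this median was -0.09. Dhrs3, which lowers retinoic acid, had 23.8 FPKM in coculture and 3.05 FPKM alone, Cyp26b1, which breaks it down, had 17.4 FPKM in coculture and 3.14 FPKM alone, and the carrier gene Crabp1 had 379.9 FPKM in coculture and 974 FPKM alone, a log2 difference of -1.36. Of 19 granzymes and mast cell proteases listed, 3 were measured, 0 of them higher and 2 lower, with a median log2 difference of -2.32, namely Mcpt8 and Gzme. Among 17 measured of 17 listed housekeeping genes, 0 were higher and 2 lower (median log2 difference -0.57). The lower ones were Ppia, a cyclophilin, and Rplp0, a ribosomal protein, at -1.72 and -1.59, while Gapdh and Actb had -0.27 and -0.67.

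**Figure D4:**
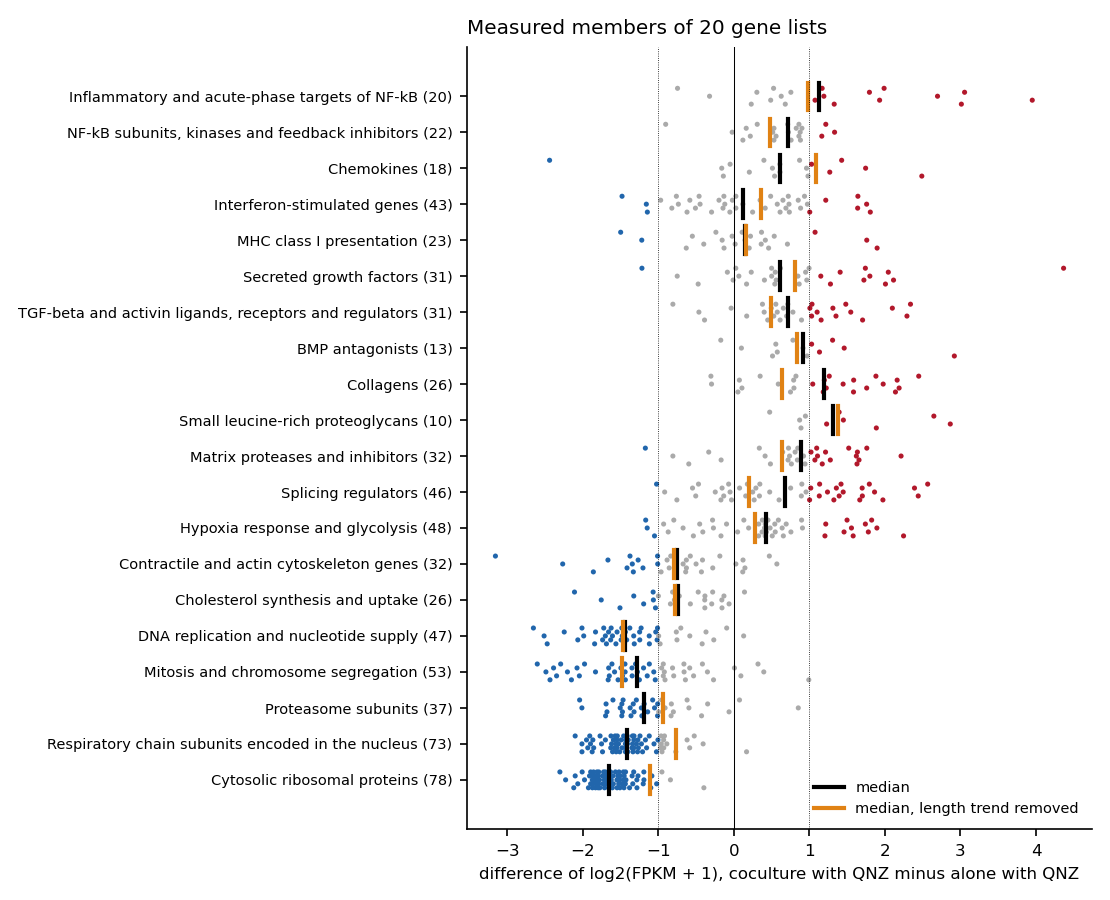
Log2(FPKM + 1) in coculture with QNZ minus that alone with QNZ for the measured members of 20 gene lists (number in brackets), 1 point per gene, red for at least 1, blue for -1 or less and grey for the rest. Black bars are list medians and orange bars the medians with the length trend removed; inflammatory targets of NF-κB (1.12, 0.99 with the trend removed) lie above 0 and replication genes (-1.43, -1.46) below it in both, while ribosomal proteins move from -1.65 to -1.11.

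Most listed markers of fibroblasts were measured in this pair, which is labelled as fibroblasts. Of 15 fibroblast markers listed, 14 were measured, 6 of them higher in coculture and 0 lower. The other, S100a4, had 0 reads in both libraries, and the reason was not tested. The summed reads of the list were 18512 CPM in coculture and 12556 CPM alone. Fn1, fibronectin, had 711 FPKM in coculture and 446 FPKM alone, Thy1 had 241 FPKM in coculture and 168 FPKM alone, and Vim, vimentin, had 409.7 FPKM in coculture and 622 FPKM alone. Markers of bone marrow stromal cells, many of which fibroblasts share, gave 6 higher and 0 lower of 13, with summed reads of 7575 CPM in coculture and 2877 alone. MSC RNA in the coculture library cannot be told apart from these values. Of 24 macrophage and monocyte markers 4 were measured, and 10 had 0 reads in each library, among them Itgam, C1qa, C1qb and C1qc in both. Their sums were 25.1 CPM in coculture and 21.9 alone. The sum over 10 neutrophil markers was 1.44 CPM in coculture and 1.14 alone, that over 10 lymphocyte markers 1.06 in coculture and 0.254 alone, and that over 8 erythroid markers 0.988 in coculture and 0.887 alone. Mast cell and basophil markers summed to 27.6 CPM in coculture and 14.5 alone, mostly through Gata2, which had 4.87 FPKM in coculture and 2.61 FPKM alone. Endothelial markers summed to 10.2 CPM in coculture and 10.96 alone, and neural markers to 31.2 in coculture and 37.0 alone. Epithelial markers summed to 40.2 CPM in coculture and 72.3 alone, and skeletal muscle markers, which include Acta1, to 40.9 in coculture and 291 alone. For the Y-linked genes, 3 of 4 measured were higher, with Ddx3y at 11.5 FPKM in coculture and 2.52 FPKM alone and Eif2s3y at 9.77 FPKM in coculture and 3.18 FPKM alone. Whether the cultures held the same mixture of embryos was not tested.

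The difference climbed with gene length. When the measured genes were split by length into 10 groups of 1107 or 1108, the median log2 difference was -0.69 in the shortest group (27 to 1788 bases) and 0.83 in the longest (9912 to 41473 bases). In the shortest group 63 of 1108 genes were higher and 399 lower, and in the longest 434 were higher and 2 lower. The rank correlation of the difference with length was 0.50 across 11078 genes, which are not independent replicates. Genes counted higher had a median length of 7016.5 bases and genes counted lower 2103.5 bases, where all measured genes had 4498.5 bases. With this trend removed by a smooth curve over log2 length, 918 genes were higher (8.29%) and 710 lower (6.41%), among them 727 (45.9%) of the genes first counted higher and 487 (49.4%) of those first counted lower. The counts of the replication, mitosis, contractile, proteoglycan and inflammatory lists were then nearly as high or higher, and those of collagens, growth factor receptors, integrins, ribosomal proteins and the respiratory chain were lower. The part of RNA quality in the trend was not tested.

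**Figure D5:**
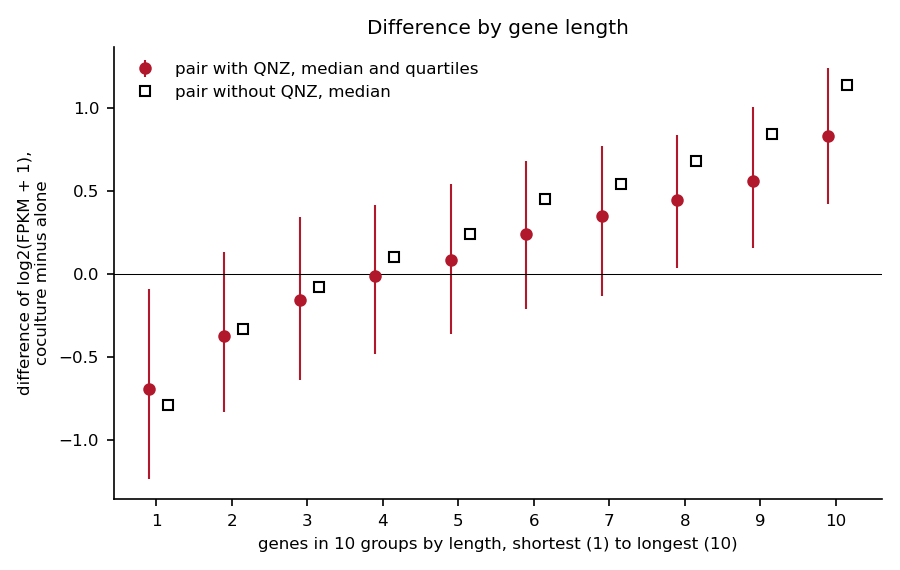
Median of log2(FPKM + 1) in coculture minus that alone in 10 groups of measured genes by length, from the shortest (1) to the longest (10); filled points with quartile bars are the pair with QNZ and open squares the medians of the pair without QNZ. Both pairs climb across the groups, with QNZ from -0.69 to 0.83.

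The pair without QNZ, which shares no library with the pair with QNZ, gave larger counts over the same 11078 genes. There 2655 genes were higher in coculture (24.0%) and 1239 lower (11.2%), with a median log2 difference of 0.34. Of the genes higher with QNZ, 1465 were higher without it too, which is 92.5% of the genes higher with QNZ and 55.2% of those higher without it. Of the genes lower with QNZ, 842 were lower in both pairs, which is 85.4% of the genes lower with QNZ and 68.0% of those lower without it. No gene was counted in opposite directions. Counted with QNZ alone were 119 higher genes and 144 lower genes. Pearson's r of the differences across genes was 0.93, and 0.90 with the length trend removed in both pairs. The rank correlation of the difference with length was 0.52 in the pair without QNZ. The pair with QNZ is no replicate of the pair without it, and the difference between them was not tested.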

How the data were processed

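RNA was sequenced from 4 cultures, 1 library each, of which 2 form the comparison. Per the labels and the study's methods, total RNA was extracted, its mRNA was fragmented, and libraries were made with random primers and dUTP strand marking. Reads were aligned with STAR 2.5.4b to mm10, and Cuffnorm of Cufflinks 2.2.1 was used. The counting tool, its strand setting and the annotation version are not given in the sources used here. The authors deposited raw read counts per gene and FPKM values for each library, with gene length and position. The deposited FPKM of every gene equalled its count per kilobase of length and 1000000 counted reads within a relative 1e-06.

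Gene IDs of the same symbol were summed, genes with at least 1 FPKM in either library were kept, and log2(FPKM + 1) in coculture was compared with that alone. On this scale the change of low genes is understated. The size of 1 replaced a test, since each condition had 1 library. Totals were 13153696 reads in coculture with QNZ and 15778488 alone with QNZ, and 0 reads allow up to 3 reads (0.228 CPM in coculture and 0.190 CPM alone). Read ratios have exact (Clopper-Pearson) 95% intervals. The length trend was a lowess curve over log2 length (span 0.3, 3 rounds). Named genes were the 15 furthest in each direction among those with at least 5 FPKM in either library (leaving out predicted genes, pseudogenes and small RNA genes), the largest differences and the most abundant member of each list, and 10 cytokines of the study; further list members were named after their values were seen, and a few members are not reported here. The members and all 63 lists (52 of pathways, 11 of cell type markers) were chosen with earlier results of these data known, so they support nothing independently. Alternatives were pseudocounts of 0.1 and 0.01, no filter, a filter of 5 FPKM, median-of-ratios scaling, TPM, the length trend removed, a size of 2, the pair without QNZ, and only the largest of the IDs that share a symbol. Calculations were made in Python 3.11.15 with scipy 1.17.1 for intervals, statsmodels 0.14.6 for the curve, pandas 2.3.3, matplotlib 3.10.9 and numpy 2.4.6, and were tested on simulated data. Promoters are from RefSeq on GRCm38.p6.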

Additional observations from a re-analysis of the deposited data

Results flagged for a closer look

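Genes of the lists that lay on opposite sides of 0 in the pair with QNZ and in the pair without it, by a gap of at least 1 on the log2 scale, are given here. Over the 1340 genes looked at there were 23 of them, and over all 11078 measured genes there were 72, among 189 with such a gap in any direction. The side of 0 depends on the scaling, which moves the median of all genes with QNZ from 0.18 to -0.08 (median of ratios) or 0.61 (TPM), so values near 0 such as those of Zbp1, Loxl3, Trib3, Pmaip1 and Mt1 do not fix a direction. Each pair had 1 library per culture, so the difference between the pairs was not tested.

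Genes of the interferon response and of class I presentation had a positive difference with QNZ and a negative one without it in 7 cases. Cxcl10, an interferon-induced chemokine, had a log2 difference of 0.40 with QNZ and -1.70 without it, Ifi27l2a 0.73 and -1.76, and Zbp1, a sensor of nucleic acids, 0.028 and -1.71. Gbp2 had 0.35 and -0.72, Ifitm1 0.69 and -0.46, Oas1b 1.01 and -0.22, and H2-T23 0.37 and -0.87. Ccl11 had 2.49 with QNZ and -0.47 without it. Its levels were 23.7 FPKM in coculture and 3.397 FPKM alone with QNZ, and 25.2 FPKM in coculture and 35.2 FPKM alone without it.

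For other genes the difference was negative with QNZ and positive without it. Mt1, metallothionein 1, had -0.10 with QNZ and 1.77 without it, Slc7a3, an arginine transporter, -0.39 and 1.67, and Trib3, a pseudokinase that ATF4 induces, -0.0911 and 1.39. Pmaip1 had -0.0979 and 1.06, Gdf15 -0.75 and 0.62, Osgin1 -0.44 and 0.60, and Sgk1 -0.51 and 0.49. Lyz2, lysozyme of myeloid cells, had -0.34 with QNZ and 1.37 without it.

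The remaining genes were Ect2, of cytokinesis, at -1.06 with QNZ and 0.13 without it, Cldn4 at -1.46 and 0.0517, Mdk at -0.47 and 0.56, the integrin gene Itgb3 at 1.09 and -0.14, Loxl3 at 0.0721 and -1.03, the gelatinase gene Mmp9 at 0.92 and -0.18, and Plat, tissue plasminogen activator, at 0.81 and -0.31.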

How the results depend on the processing

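The count of genes higher in coculture with QNZ was 1584 as reported, 2456 with a pseudocount of 0.1 and 2524 with one of 0.01, 1004 with median-of-ratios scaling, 4102 as TPM, 918 with the length trend removed, 141 at a size of 2 and 2655 in the pair without QNZ. The count of lower genes was 986 as reported, 1559 with median-of-ratios scaling, 600 as TPM and 60 at a size of 2. The median log2 difference was 0.18 as reported, 0 with no filter on FPKM, 0.0534 with a filter of 5, -0.0797 with median-of-ratios scaling, 0.61 as TPM, 0.000326 with the length trend removed and 0.34 in the pair without QNZ. The 30 named genes kept their direction and a size of at least 1 under each of the 9 alternatives. They were picked as the largest differences among genes with at least 5 FPKM. For that reason the settings without a filter and with a filter of 5 FPKM could not change their values. Pseudocounts of 0.1 and 0.01 could only enlarge their differences. Keeping only the largest ID could change only the 23 symbols that have more than 1 ID. These settings are therefore no check of the 30 genes. The sign of the median and the size of a split across all genes therefore rest on the scaling, and the cause of the length trend was not tested. Genes with few reads, such as Ppbp with 3 reads in coculture, are limited by depth. No paired analysis was possible because each condition had 1 library and the comparison within QNZ holds 1 pair.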
